A study of Mus musculus with 4 samples.

Results

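The genes described here are 10 ligands and receptors of the VEGF and angiopoietin systems, out of 29245 mouse gene columns: the receptors Kdr, Flt1, Flt4, Nrp1, Tek and Tie1, and the ligands Vegfa, Vegfb, Vegfc and Angpt1. They were chosen by name as a pathway list and not by a measured value, although earlier results of these data were known. Their transcripts were counted in single wells of mouse hearts (strain C57BL/6) on 4 chips. Of 4275 wells with sample material, 3990 held at least 10000 UMIs (unique molecular identifiers, tags that mark single captured molecules) and at least 300 genes, and were kept. The animals labelled as deficient in Mst1/2 are called KO1 and KO2, and the wild-type animals WT1 and WT2. Each heart gave a cardiomyocyte fraction (CM) and a non-cardiomyocyte fraction (NCM), separated by repeated slow centrifugation. The labels used here give no allele, tissue of deletion, age, sex, injury or drug treatment, although the study's title speaks of myocardial infarction and of inhibitors.

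VEGF-A, encoded by Vegfa, acts on endothelial cells through the receptor tyrosine kinase encoded by Kdr, which carries most of its growth signal, and through that encoded by Flt1, which binds it tightly and signals weakly. Vegfb encodes a ligand of the Flt1 product, Vegfc a ligand of the Flt4 product that guides lymphatic vessels and can also bind the Kdr product, and Nrp1 a co-receptor. Angpt1 encodes the angiopoietin that activates the kinase encoded by Tek and steadies vessels, and Tie1 encodes a related receptor that modulates it.

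On GRCm38, Kdr lies at chr5:75932827-75978458 and Flt1 at chr5:147561604-147726011, both on the minus strand. Flt4 lies at chr11:49609263-49652739 and Nrp1 at chr8:128358604-128503363, both on the plus strand. Tek lies at chr4:94739289-94874976 on the plus strand and Tie1 at chr4:118471191-118490061 on the minus strand. Vegfa lies at chr17:46016993-46032369 and Vegfb at chr19:6982473-6987651, both on the minus strand. Vegfc lies at chr8:54077606-54187096 on the plus strand and Angpt1 at chr15:42424723-42676977 on the minus strand. All 10 are protein-coding genes. Nrp1 contains the microRNA gene Mir1903 on the same strand, and Angpt1 overlaps the antisense gene Gm17473. The strand setting of the counting is not given in the sources used here, so reads of Angpt1 and Gm17473 may not be separated.

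The 250 bases before the RefSeq start (GRCm38.p6) of 4 receptor tyrosine kinase genes are printed 5′ to 3′, because in each animal all 4 were higher in endothelial-like NCM wells than in fibroblast-like or macrophage-like NCM wells or cardiomyocyte-like CM wells. Kdr is at chr5:75978456-75978705 (minus strand), Flt1 at chr5:147726012-147726261 (minus strand), Tie1 at chr4:118489850-118490099 (minus strand) and Tek at chr4:94739039-94739288 (plus strand). Capitals mark GGAAGT on either strand, an ETS-type motif, which appears as ACTTCC where it lies on the opposite strand.
Kdr: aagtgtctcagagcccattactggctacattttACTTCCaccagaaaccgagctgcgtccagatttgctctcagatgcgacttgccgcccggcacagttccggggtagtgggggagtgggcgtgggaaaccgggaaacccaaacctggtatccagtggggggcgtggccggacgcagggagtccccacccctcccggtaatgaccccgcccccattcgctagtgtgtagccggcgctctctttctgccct
Flt1: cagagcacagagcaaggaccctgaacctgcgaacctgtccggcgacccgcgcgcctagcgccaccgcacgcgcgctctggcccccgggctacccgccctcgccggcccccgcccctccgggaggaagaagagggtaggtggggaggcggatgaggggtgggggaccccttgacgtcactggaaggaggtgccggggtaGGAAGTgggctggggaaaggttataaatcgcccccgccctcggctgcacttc
Tie1: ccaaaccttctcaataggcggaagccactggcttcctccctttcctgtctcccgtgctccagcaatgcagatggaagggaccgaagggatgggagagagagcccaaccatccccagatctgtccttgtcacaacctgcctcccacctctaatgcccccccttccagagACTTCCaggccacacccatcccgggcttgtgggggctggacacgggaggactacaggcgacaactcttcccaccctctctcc
Tek: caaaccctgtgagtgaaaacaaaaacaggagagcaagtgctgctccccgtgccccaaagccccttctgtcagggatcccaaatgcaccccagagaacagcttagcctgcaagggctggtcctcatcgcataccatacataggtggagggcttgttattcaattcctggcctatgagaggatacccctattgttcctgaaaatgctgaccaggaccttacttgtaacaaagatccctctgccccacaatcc
The motif was found once in each of the Kdr, Flt1 and Tie1 windows and not in the Tek window. Its first letter in the printed strand lies 217 bases before the start in Kdr, 52 in Flt1 and 82 in Tie1. Among 32851 promoters of the RefSeq table, 19.7% held it in the same 250 bases. The RefSeq start of Tie1 lies inside the GENCODE gene span given above. Most of the printed Tie1 window, with its marked motif, therefore lies within that span. The motif was chosen after these sequences were seen, and a match is a description of letters only.

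Depth and composition differed between the chips. Levels are given as CPM, the UMIs of a gene scaled to 1000000 UMIs outside the mitochondrial (mt-) and haemoglobin (Hba- and Hbb-) genes, in the sum over an animal's wells. These UMIs totalled 13126144 to 93816921 over the 210 to 747 kept wells of an animal and fraction. Mitochondrial genes took 58.1% and 36.5% of all UMIs in the NCM wells of KO1 and KO2, against 7.45% and 11.2% in those of WT1 and WT2. In the CM wells they took 47.2% and 36.4% in KO1 and KO2, against 38.1% and 35.7% in WT1 and WT2. Each chip held 1 genotype and 1 fraction, so neither genotype nor fraction can be told apart from chip. Any pair of chips shared 60 to 400 well barcodes, and wells were kept apart by chip. Stk4 and Stk3, the genes of Mst1 and Mst2, were still detected in KO. Stk4 had 45.8 and 37.5 CPM in KO NCM wells, against 53.1 and 47.3 in WT NCM wells, and Stk3 29.0 and 26.3 in KO NCM wells, against 23.5 and 38.6 in WT NCM wells. The labels give neither the deleted part nor the cells of deletion, so these reads do not check them, and KO here means the library labelled KO. The 40 control wells together held 1 UMI of the 10 genes, from Nrp1.

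Cell classes were rebuilt from marker genes without using the 10 genes, and their names carry the ending -like. Endothelial-like wells came from 2 clusters: cluster 3 held 501 NCM and 4 CM wells, and cluster 5 held 34 NCM and 184 CM wells. In NCM they numbered 224 in KO1 and 104 in KO2, against 62 in WT1 and 145 in WT2. In CM they numbered 66 in KO1 and 70 in KO2, against 30 in WT1 and 22 in WT2. Levels by class are descriptions without a test. Where groups are said not to overlap, the share of all genes that do the same is not given. Nothing beyond the names in the deposited reports says that the animals were separate, so the spread between them may be partly technical.

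Kdr was highest in endothelial-like NCM wells in each of the 4 animals, among the 6 combinations of named class and fraction with at least 20 wells in every animal. It had 837 and 444 CPM in KO1 and KO2, against 617 and 631 in WT1 and WT2, and the mean was 632 ± 161 CPM (SD, n = 4). In WT1, 47.1% of these UMIs came from 1 well. Outside the 6 combinations, lymphatic endothelial-like NCM wells had 1045 and 122 CPM in KO1 and KO2, against 157 and 688 in WT1 and WT2. They stood above the endothelial-like NCM wells in KO1 and WT2, where they numbered 3 and 4. In these, 94.3% and 88.8% of the Kdr UMIs came from 1 well. Endothelial-like CM wells had 214 and 122 CPM in KO1 and KO2, against 203 and 208 in WT1 and WT2. They did not overlap with the NCM wells of the class, and stood above the cardiomyocyte-like CM wells, at 15.8 to 54.0 CPM. Cluster 0, an unnamed cluster with 131 to 276 NCM wells an animal, had 403 and 202 Kdr CPM in KO1 and KO2, against 90.3 and 63.1 in WT1 and WT2, also below the endothelial-like NCM wells. Before any thinning, the share of endothelial-like NCM wells with Kdr was 75.0% and 85.6% in KO1 and KO2, against 71.0% and 75.2% in WT1 and WT2. With each well thinned to 10000 UMIs, the share of endothelial-like NCM wells with Kdr was 64.2% and 63.9% in KO1 and KO2, against 62.1% and 61.4% in WT1 and WT2. Each of these 4 shares lies within the exact binomial 95% interval of the others, and intervals cover counting error only. In neutrophil-like NCM wells, immune cells not known for Kdr, the thinned share was 41.4% and 37.5% in KO1 and KO2, against 7.25% and 5.71% in WT1 and WT2. Before thinning, the median UMIs per well outside mitochondrial and haemoglobin genes of neutrophil-like wells were 30215 and 54325.5 in KO1 and KO2, against 46794 and 57523 in WT1 and WT2. For endothelial-like wells they were 25279.5 and 45256.5 in KO1 and KO2, against 39591 and 53793 in WT1 and WT2. Free RNA can place UMIs in wells of another class, and the neutrophil-like share is given as a background level.

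Flt1 had the same leading class in each animal. Endothelial-like NCM wells had 956 and 872 CPM in KO1 and KO2, against 491 and 833 in WT1 and WT2, a mean of 788 ± 204 CPM (SD, n = 4). In KO2, 59.2% of these UMIs came from 1 well. After thinning, the share of these wells with Flt1 was 71.1% and 64.9% in KO1 and KO2, against 62.1% and 65.0% in WT1 and WT2. Outside the 6 combinations, unnamed cluster 7 had 937 and 289 CPM in its 53 and 117 NCM wells of KO1 and KO2, with a thinned share of 69.0% and 43.5%. It held only 1 and 4 NCM wells in WT1 and WT2. Neutrophil-like NCM wells had 765 and 101 CPM in KO1 and KO2, against 35.0 and 18.9 in WT1 and WT2. Their KO1 value passed the endothelial-like NCM value of WT1. Endothelial-like CM wells had 495 and 207 CPM in KO1 and KO2, against 306 and 265 in WT1 and WT2, and the CM value of KO1 just passed the NCM value of WT1. Among thinned endothelial-like NCM wells with Flt1, 62.8% and 67.6% also held Kdr in KO1 and KO2, against 73.5% and 69.3% in WT1 and WT2. Among those without Flt1, 64.2% and 51.7% held Kdr in KO1 and KO2, against 37.5% and 59.6% in WT1 and WT2. Kdr was found more often beside Flt1 in 3 of 4 animals, and this difference was not tested.

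Nrp1, the co-receptor, was highest in endothelial-like NCM wells among the same 6 combinations, in each animal. Endothelial-like NCM wells had 1151 and 642 CPM in KO1 and KO2, against 1106 and 854 in WT1 and WT2, a mean of 938 ± 237 CPM (SD, n = 4). Fibroblast-like NCM wells had 272 and 281 CPM in KO1 and KO2, against 175 and 132 in WT1 and WT2. Macrophage-like NCM wells had 396 and 219 CPM in KO1 and KO2, against 183 and 213 in WT1 and WT2. Cardiomyocyte-like CM wells had 243 and 118 CPM in KO1 and KO2, against 138 and 107 in WT1 and WT2. The fibroblast-like, macrophage-like and cardiomyocyte-like ranges overlapped, and each value lay below that of the endothelial-like NCM wells of the same animal. Endocardial-like NCM wells had 942 and 493 CPM in KO1 and KO2, against 1458 and 747 in WT1 and WT2, above the endothelial-like NCM wells in WT1. Pericyte-like NCM wells, 6 to 14 an animal, had 97.7 and 790 CPM in KO1 and KO2, against 650 and 419 in WT1 and WT2. They stood above the endothelial-like NCM wells in KO2. Neutrophil-like NCM wells had 296 and 120.1 CPM in KO1 and KO2, against 142 and 68.3 in WT1 and WT2. After thinning, the share of fibroblast-like wells with Nrp1 was 61.1% and 55.8% in KO1 and KO2, against 57.1% and 41.3% in WT1 and WT2. That of macrophage-like wells was 61.4% and 55.1% in KO1 and KO2, against 44.4% and 56.7% in WT1 and WT2. That of neutrophil-like wells was 65.5% and 43.8% in KO1 and KO2, against 27.5% and 14.3% in WT1 and WT2. The neutrophil-like share was above both others in KO1 and below both in KO2, WT1 and WT2. Endothelial-like wells held 20.3% to 49.2% of the Nrp1 UMIs of an animal's NCM wells and 53.5% to 65.5% of the Flt1 UMIs.

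Tek and Tie1 were high in both endothelial-like and endocardial-like NCM wells, the endocardium being the lining of the heart chambers. In endothelial-like NCM wells Tek had 135 and 83.1 CPM in KO1 and KO2, against 143 and 155 in WT1 and WT2. In endocardial-like NCM wells, 14 to 23 an animal, Tek had 247 and 164 CPM in KO1 and KO2, against 138 and 297 in WT1 and WT2. In these sums Tek was thus higher in the endocardial-like wells of KO1, KO2 and WT2 and lower in those of WT1. In WT2, 62.8% of the endocardial-like Tek UMIs came from 1 well. As a mean over wells the exception was WT2, at 192 CPM in endocardial-like and 196 in endothelial-like wells, against 360 and 156 in WT1. After thinning, the share of endocardial-like wells with Tek was 35.7% and 50.0% in KO1 and KO2, against 45.0% and 36.4% in WT1 and WT2. Fibroblast-like NCM wells had 38.3 and 78.2 Tek CPM in KO1 and KO2, against 50.7 and 39.4 in WT1 and WT2. Endothelial-like NCM wells had 154 and 52.0 Tie1 CPM in KO1 and KO2, against 79.4 and 146 in WT1 and WT2. In endocardial-like NCM wells Tie1 had 283 and 21.1 CPM in KO1 and KO2, against 84.4 and 269 in WT1 and WT2. The endocardial-like wells were higher in Tie1 in 3 of 4 animals, KO2 being the exception. In KO1, 75.0% of the endocardial-like Tie1 UMIs came from 1 well. After thinning, Tek was found in 13.8 to 25.7% and Tie1 in 21.6 to 37.4% of endothelial-like NCM wells across the 4 animals.

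Flt4, the lymphatic receptor, was higher in the lymphatic endothelial-like NCM wells than in endothelial-like or endocardial-like NCM wells in each animal. The lymphatic class held only 2 to 4 NCM wells an animal, with 9 and 28 Flt4 UMIs in KO1 and KO2, against 36 and 101 in WT1 and WT2. Its level there was 45.0 and 132 CPM in KO1 and KO2, against 95.9 and 325 in WT1 and WT2. Endothelial-like NCM wells had 30.6 and 33.0 CPM in KO1 and KO2, against 10.96 and 8.32 in WT1 and WT2. KO and WT do not overlap in these sums, which rest on 5 to 24 wells an animal with any Flt4 UMI. As a mean over wells they do overlap, at 20.4 and 23.7 CPM in KO1 and KO2, against 42.2 and 9.67 in WT1 and WT2. After thinning, the share of wells with Flt4 was 6.32% and 5.15% in KO1 and KO2, against 5.17% and 2.86% in WT1 and WT2.

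**Figure D1:**
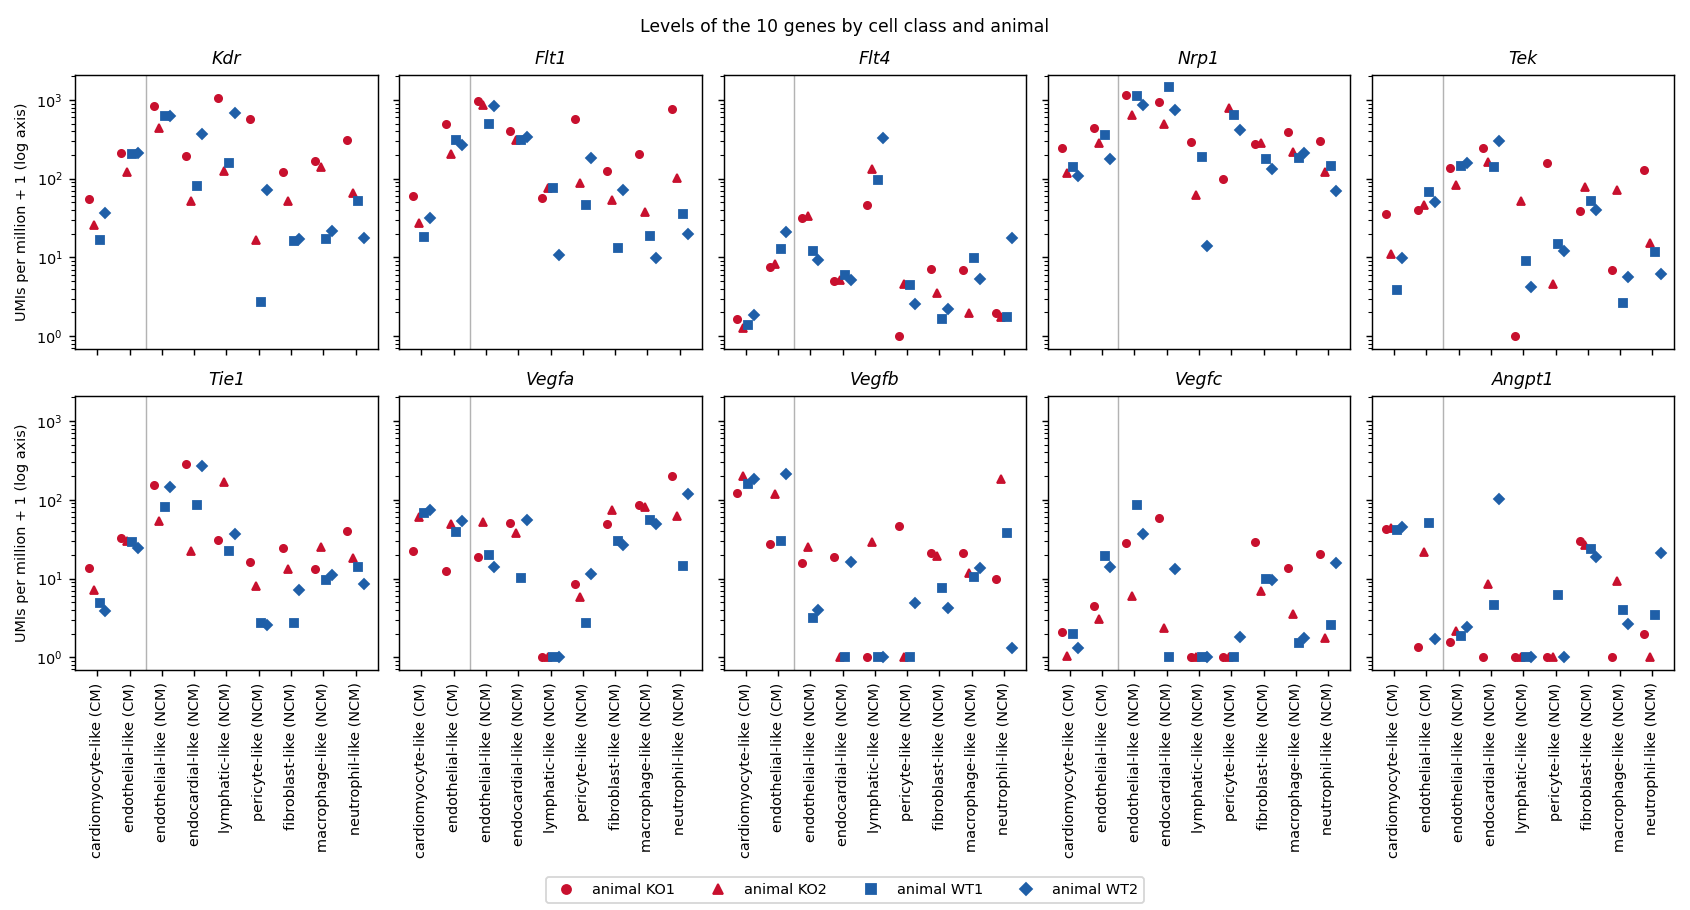
Levels of the 10 genes in CPM (UMIs per 1000000), on a log axis, in combinations of cell class and fraction. Each point is the sum of 1 animal's wells, with KO and WT in separate colours. Among the 6 combinations with at least 20 wells in every animal, Kdr and Flt1 stand highest in endothelial-like NCM wells. Their means there are 632 and 788 CPM. The 3 and 4 lymphatic endothelial-like NCM wells of KO1 and WT2 stand higher in Kdr, at 1045 and 688 CPM. Vegfb has a mean of 166 CPM in cardiomyocyte-like CM wells.

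Vegfb, the Flt1 ligand, was highest in cardiomyocyte-like CM wells in 3 of 4 animals, among the same 6 combinations. These wells had 121 and 201 CPM in KO1 and KO2, against 158 and 183 in WT1 and WT2, a mean of 166 ± 34.6 CPM (SD, n = 4). Fibroblast-like NCM wells had 20.04 and 18.5 CPM in KO1 and KO2, against 6.50 and 3.25 in WT1 and WT2. The cardiomyocyte-like CM wells lay above the fibroblast-like NCM wells without overlap, where class and chip cannot be told apart. On the CM chips, fibroblast-like wells had 19.2 and 69.1 CPM in KO1 and KO2, against 25.8 and 41.9 in WT1 and WT2. Macrophage-like CM wells had 35.8 and 151 CPM in KO1 and KO2, against 32.4 and 66.7 in WT1 and WT2. Their KO2 value passed the cardiomyocyte-like value of KO1. In WT2 the 22 endothelial-like CM wells stood above the cardiomyocyte-like CM wells, at 214 CPM, as did the 5 endocardial-like CM wells, at 194 CPM. Cardiomyocyte-like wells held 68.4% to 82.8% of the Vegfb UMIs of an animal's CM wells.

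In cardiomyocyte-like CM wells Angpt1, the Tek ligand, had 41.2 and 42.8 CPM in KO1 and KO2, against 40.6 and 44.2 in WT1 and WT2. These 4 sums lie close together, although 59.7% of the KO1 sum came from 1 well and 5 of its 141 wells held any. After thinning, the share of cardiomyocyte-like wells with Angpt1 was 2.38% and 16.9% in KO1 and KO2, against 16.1% and 24.6% in WT1 and WT2, so KO1 stood lowest. Fibroblast-like NCM wells had 29.1 and 25.9 CPM in KO1 and KO2, against 23.0 and 18.0 in WT1 and WT2, below the cardiomyocyte-like CM wells of every animal. Endothelial-like NCM wells, where its receptor Tek was high, had 0.539 to 1.42 CPM.

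Vegfa was not tied to 1 class. Cardiomyocyte-like CM wells had 21.0 and 59.4 CPM in KO1 and KO2, against 67.5 and 73.9 in WT1 and WT2. Macrophage-like NCM wells had 85.6 and 80.4 CPM in KO1 and KO2, against 54.3 and 48.7 in WT1 and WT2. Fibroblast-like NCM wells had 48.2 and 72.6 CPM in KO1 and KO2, against 28.7 and 25.4 in WT1 and WT2. Among the same 6 combinations, macrophage-like NCM wells led in both KO animals and cardiomyocyte-like CM wells in both WT animals. Outside them, neutrophil-like NCM wells had 201 and 61.2 CPM in KO1 and KO2, against 13.6 and 118 in WT1 and WT2, and stood above that leading level in KO1 and WT2. NCM wells of unnamed cluster 0 had 81.7 and 69.7 CPM in KO1 and KO2, against 34.8 and 109.8 in WT1 and WT2, above it in WT2. NCM wells of unnamed cluster 9, 12 to 49 an animal, had 92.3 and 80.7 CPM in KO1 and KO2, against 100.5 and 24.8 in WT1 and WT2. They stood above that leading level in KO1, KO2 and WT1. The 12 T or NK-like NCM wells of KO1 had 230 CPM, with 98.6% of these UMIs from 1 well. The KO values lay above the WT values in the macrophage-like and fibroblast-like wells and below them in the cardiomyocyte-like wells, where KO1 was lowest.

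Vegfc, the Flt4 ligand, was low in the classes listed. Endothelial-like NCM wells had 27.5 and 4.98 CPM in KO1 and KO2, against 84.5 and 36.1 in WT1 and WT2. In WT1, 86.2% of these UMIs came from 1 well. Fibroblast-like NCM wells had 27.9 and 6.00 CPM in KO1 and KO2, against 8.83 and 8.53 in WT1 and WT2. The endothelial-like and fibroblast-like ranges overlapped.

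Ligands and receptors were paired by the class with the highest level in each animal, among the same 6 combinations. Vegfb led in cardiomyocyte-like CM wells in 3 of 4 animals, and its receptor Flt1 in endothelial-like NCM wells in 4 of 4. Angpt1 led in cardiomyocyte-like CM wells in KO1 and WT2, in macrophage-like CM wells in KO2 and in endothelial-like CM wells in WT1, whereas Tek led in endothelial-like NCM wells in 4 of 4. Vegfa and Kdr led in different classes in 4 of 4 animals. Vegfc and Kdr both led in endothelial-like NCM wells in WT1 and WT2. In KO1, Vegfc stood at 27.9 CPM in fibroblast-like and 27.5 in endothelial-like NCM wells, nearly a tie, and its WT1 lead rests on the 1 well given above. In unnamed cluster 0 Vegfc had 40.4 and 6.65 CPM in KO1 and KO2, against 8.85 and 5.92 in WT1 and WT2, above both classes in KO1 and KO2. The other 7 of 8 ligand and receptor pairs led in the same combination of class and fraction in 0 of 4 animals. Some led in endothelial-like wells of different fractions: Vegfb in CM with Flt1 and Nrp1 in NCM in WT2, Vegfc in NCM with Flt4 in CM in WT1 and WT2, and Angpt1 in CM with Tek in NCM in WT1.

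Across 41 sums of animal, fraction and class with at least 20 wells, unnamed clusters included, the genes nearest to Kdr, Flt1 and Tie1 included known endothelial genes. Likeness was Pearson's r of log2(CPM + 1) among 6017 genes with a mean of at least 20 CPM. Kdr was most like Tmem88 (r = 0.904) and Myct1 (r = 0.897). Flt1 was most like Fabp4 (r = 0.907), a fatty acid carrier and a marker used to name the class, and Gpihbp1 (r = 0.887), which holds lipoprotein lipase on capillaries. Tie1 was most like Cdh5 (r = 0.877), the endothelial cadherin and also a marker, and Tmem88 (r = 0.869). Nrp1 was most like Podxl (r = 0.826) and Icam2 (r = 0.818), and Tek most like Smad1 (r = 0.832) and Tm4sf1 (r = 0.826). Vegfb was most like Atp2a2 (r = 0.855), the calcium pump of the sarcoplasmic reticulum, and Ndufb8 (r = 0.851), a subunit of a respiratory complex. Flt4 was most like Gimap4 (r = 0.7005) and Hspa12b (r = 0.661), and Vegfc most like Igfbp3 (r = 0.734) and Pls3 (r = 0.699). Vegfa was most like Coq7 (r = 0.572) and Rtn4 (r = 0.558), and Angpt1 most like Fmc1 (r = 0.552) and Mpc2 (r = 0.527). The sums of an animal share its chips and depth, so these values are descriptions.

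The CM and NCM fractions were compared over all kept wells, with the animal as a block, which does not remove the chip. Vegfb and Angpt1 were higher in CM and Kdr was lower. Vegfb had 60.9, 177, 86.4 and 156 CPM in CM wells of KO1, KO2, WT1 and WT2, against 17.7, 23.8, 8.75 and 7.80 in their NCM wells, a log2 fold change of 3.62 (SE 0.448, edgeR adjusted p = 0.000950). Angpt1 had 19.96, 39.0, 28.6 and 32.1 CPM in CM wells of KO1, KO2, WT1 and WT2, against 8.92, 9.87, 12.5 and 10.1 in their NCM wells, a log2 fold change of 2.03 (SE 0.350, edgeR adjusted p = 0.00521). The fractions do not overlap for either ligand. Kdr had 75.7, 45.3, 31.4 and 43.1 CPM in CM wells of KO1, KO2, WT1 and WT2, against 415, 181, 63.2 and 127 in their NCM wells, a log2 fold change of -1.22 (SE 0.291, edgeR adjusted p = 0.0236). It was lower in CM in 4 of 4 animals, although the ranges overlap. In sums over all wells, the mix of classes and the level within a class enter together and cannot be told apart. The 8 cardiomyocyte markers summed to 2.55%, 6.20%, 4.68% and 6.35% of UMIs in CM wells of KO1, KO2, WT1 and WT2, against 0.204%, 0.476%, 0.0928% and 0.247% in their NCM wells. The 9 endothelial markers summed to 0.243%, 0.101%, 0.120% and 0.0981% in the CM wells, against 0.603%, 0.318%, 0.192% and 0.390% in the NCM wells, and their part in these results was not tested.

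In CPM the other receptors were lower in CM in 4 of 4 animals, but they missed the threshold. The edgeR fit rescales library totals by TMM factors, which for WT1 were 0.884 in CM and 1.15 in NCM. Divided by these factors, Flt1 and Nrp1 were higher in CM in WT1. The log2 fold change was -0.78 for Flt1 (edgeR adjusted p = 0.120), -1.40 for Flt4 (adjusted p = 0.149) and -0.45 for Nrp1 (adjusted p = 0.248). It was -0.79 for Tek (edgeR adjusted p = 0.0859) and -1.29 for Tie1 (adjusted p = 0.0750). Vegfc differed by -1.53 (edgeR adjusted p = 0.195). Of these 10 genes 2 were called higher and 1 lower in CM, against 14.3% of all 17509 genes called, 8.33% higher and 5.92% lower. The median log2 fold change was -0.78 over the 10 genes and -0.28 over all genes. Scaling by library totals moved the median of all genes to -0.81, called 1068 genes higher and 2895 lower in place of 1459 and 1037, and called every one of the 6 receptors lower.

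The calls changed with single animals and with a limit on mitochondrial RNA. Without KO1, KO2 or WT2, Kdr had edgeR adjusted p-values of 0.0566, 0.0856 and 0.0631. Among wells under 30% mitochondrial UMIs, which left 18 NCM wells of KO1, the log2 fold change of Vegfb was 3.10 (edgeR adjusted p = 0.0517), that of Angpt1 1.43 (adjusted p = 0.150) and that of Kdr -0.33 (adjusted p = 0.788). Without KO1, KO2, WT1 and WT2 in turn, edgeR called 2654, 1252, 1360 and 1453 genes of all.

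**Figure D2:**
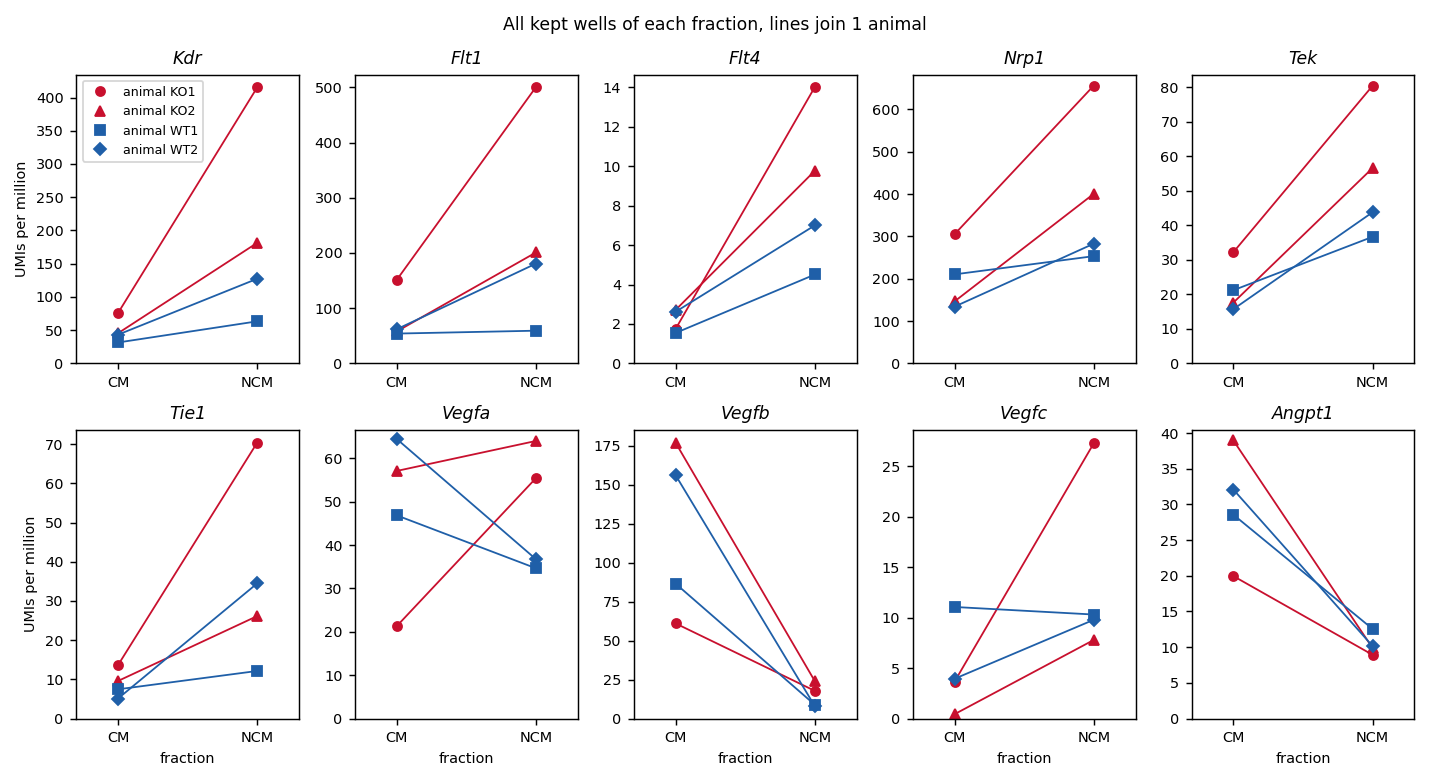
CPM (UMIs per 1000000) of each gene over all kept wells of the CM fraction (left) and the NCM fraction (right). Each line joins the fractions of 1 animal, with KO and WT in separate colours. Vegfb and Angpt1 are higher in CM in 4 of 4 animals, the 6 receptors lower in CM in 4 of 4, and Vegfa is lower in CM in both KO animals and higher in CM in both WT animals.

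In CPM, which does not use the TMM factors, Vegfa differed between the fractions in opposite directions in the 2 genotypes. It had 21.3 and 57.1 CPM in CM wells of KO1 and KO2, against 55.5 and 64.0 in their NCM wells. It had 46.8 and 64.4 CPM in CM wells of WT1 and WT2, against 34.6 and 36.7 in their NCM wells. The TMM factors of KO2 were 0.688 in CM and 1.20 in NCM, and divided by them its Vegfa was higher in CM. With these factors only KO1 was lower in CM, so the opposite direction in KO depends on the scaling and on that animal. Pooled over the genotypes, CM differed from NCM by 0.48 (SE 0.398, edgeR adjusted p = 0.457), a value that turned to -0.057 with library totals. The interaction of genotype and fraction, in which each pairing of genotype and fraction is 1 chip, was -1.29 (SE 0.677, edgeR adjusted p = 0.951) on the log2 scale and did not pass. For Vegfb it was -1.37 (SE 0.701, edgeR adjusted p = 0.951) and for Vegfc -2.83 (SE 0.963, edgeR adjusted p = 0.951). Of 17509 genes 0 were called by edgeR (0%), with 866 at an unadjusted p under 0.05 and 116 called by DESeq2. With KO1, KO2, WT1 and WT2 left out in turn, edgeR called 0, 5, 0 and 0 genes.

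Within endothelial-like wells, Kdr and Nrp1 were lower and Vegfb was higher in CM. On the levels given above, Kdr had a log2 fold change of -1.34 (SE 0.309, edgeR adjusted p = 0.0271). Nrp1 had 436, 280.1, 359.7 and 176 CPM in CM wells of KO1, KO2, WT1 and WT2, against 1151, 642, 1106 and 854 in their NCM wells, a log2 fold change of -1.20 (SE 0.301, edgeR adjusted p = 0.0425). Vegfb had 26.1, 118, 29.1 and 214 CPM in CM wells of KO1, KO2, WT1 and WT2, against 14.6, 24.0, 2.12 and 2.998 in their NCM wells, a log2 fold change of 3.56 (SE 0.888, edgeR adjusted p = 0.0419). Neither Nrp1 nor Vegfb overlapped between the fractions. Flt1 (-0.92, edgeR adjusted p = 0.118), Tek (-0.94, adjusted p = 0.312) and Tie1 (-1.40, adjusted p = 0.191) were lower in CM in 4 of 4 animals without passing. Of these 10 genes 1 was called higher and 2 lower, against 4.53% of all 13209 genes called, 3.43% higher and 1.11% lower.

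The endothelial-like wells of the fractions also differed in marker RNA, and cluster 5 holds most of the class in CM and cluster 3 in NCM. The 8 cardiomyocyte markers took 2.07%, 5.12%, 3.27% and 5.22% of UMIs in CM endothelial-like wells of KO1, KO2, WT1 and WT2, against 0.210%, 0.407%, 0.121% and 0.270% in their NCM wells. The 9 endothelial markers took 0.674%, 0.368%, 0.627% and 0.445% in the CM wells, against 1.15%, 0.889%, 1.51% and 1.95% in the NCM wells. No marker of either list was at 0, and the part of these markers in the Vegfb, Kdr and Nrp1 differences was not tested. Without KO1, KO2, WT1 and WT2 in turn, Kdr had edgeR adjusted p-values of 0.0765, 0.105, 0.105 and 0.0646. Nrp1 had edgeR adjusted p-values of 0.0589, 0.0637, 0.159 and 0.187 in the same order, and 0.0572 with mt-, Hba- and Hbb- genes kept. Vegfb missed the threshold without KO2 (edgeR adjusted p = 0.0955), WT1 (0.136) or WT2 (0.137). The count over all genes was 692, 380, 427 and 372 without KO1, KO2, WT1 and WT2.

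KO and WT hearts were compared within each class, 2 animals against 2. In endothelial-like NCM wells none of the receptors passed the threshold. Kdr differed by a log2 fold change of -0.15 (SE 0.345, edgeR adjusted p = 0.934) and Flt1 by 0.32 (SE 0.335, edgeR adjusted p = 0.823). Nrp1 differed by -0.32 (SE 0.339, edgeR adjusted p = 0.825), Tek by -0.63 (SE 0.466, edgeR adjusted p = 0.730) and Tie1 by -0.33 (SE 0.627, edgeR adjusted p = 0.913). Flt4, with few UMIs, differed by 1.57 (SE 0.939, edgeR adjusted p = 0.671). Among the ligands, Vegfb differed by 2.79 (SE 1.23, edgeR adjusted p = 0.594), Vegfa by 1.02 (SE 0.968, edgeR adjusted p = 0.796) and Vegfc by -2.14 (SE 0.993, edgeR adjusted p = 0.599), with the WT1 sum of Vegfc resting on 1 well as given above. Kdr turned to 0.038 with library totals and to 0.13 without KO2. Flt1 was -0.011 without WT1, and Tie1 was 0.17 without KO2 and 0.099 without WT2. Of 12170 genes 0 were called by edgeR (0%), with 1058 at an unadjusted p under 0.05 and 315 called by DESeq2. Leaving out KO1, KO2, WT1 and WT2 in turn gave 9, 5, 0 and 13 edgeR calls. Angpt1 fell under the filter on low counts. The other 9 had a median log2 fold change of -0.15, against -0.019 over all genes.

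The endothelial markers themselves stood lower in the KO endothelial-like wells. The 9 markers summed to 1.15% and 0.889% of UMIs in KO1 and KO2, against 1.51% and 1.95% in WT1 and WT2. Per 100 of these marker UMIs there were 7.29 and 4.99 Kdr UMIs in KO1 and KO2, against 4.09 and 3.24 in WT1 and WT2. For Flt1 there were 8.32 and 9.80 in KO1 and KO2, against 3.26 and 4.27 in WT1 and WT2. Set against these markers, Kdr and Flt1 were higher in both KO animals than in both WT animals. In CPM this held for Flt1 but not for Kdr. In KO2, 59.2% of the Flt1 UMIs came from 1 well, so its Flt1 values rest largely on that well. As a mean over wells, Flt1 overlapped, at 979 and 499 CPM in KO1 and KO2, against 714 and 999.6 in WT1 and WT2.

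**Figure D3:**
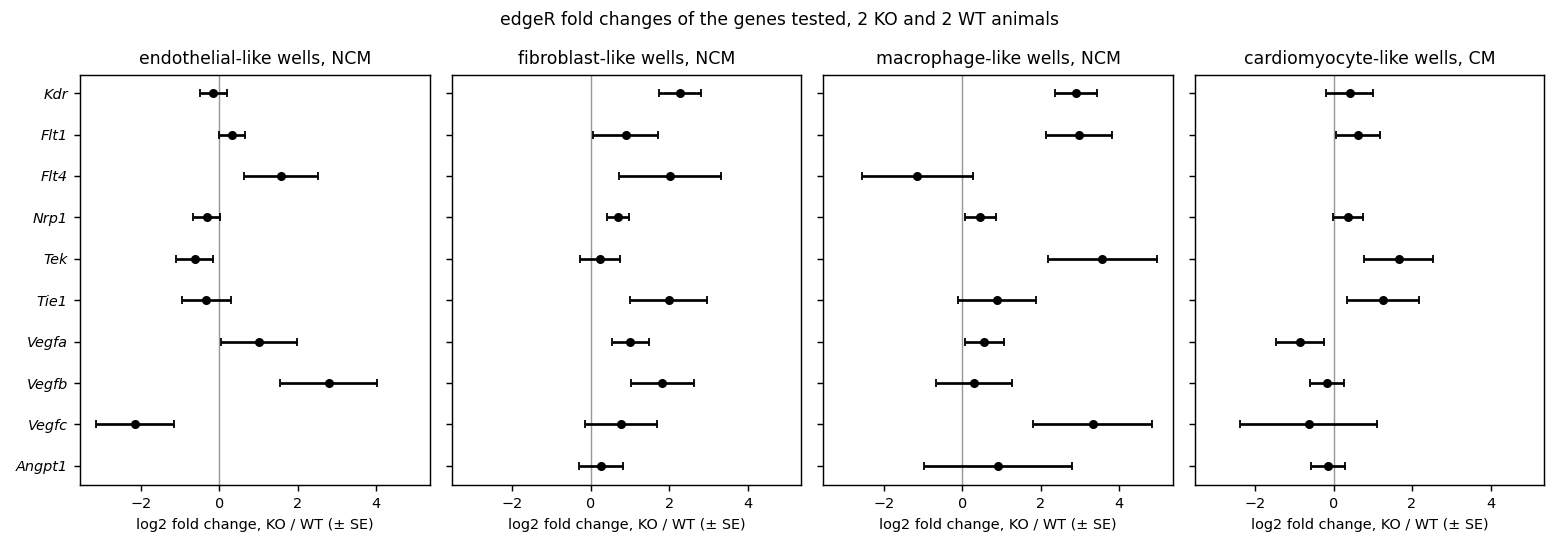
Log2 fold changes of KO over WT with standard errors from edgeR, for the genes that passed the filter on low counts, 2 KO and 2 WT animals. Kdr stands at -0.15 in endothelial-like, 2.27 in fibroblast-like and 2.90 in macrophage-like NCM wells, and no adjusted p was under 0.05.

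In fibroblast-like and macrophage-like NCM wells Kdr had larger values in KO. Fibroblast-like wells had 121 and 51.6 Kdr CPM in KO1 and KO2, against 15.2 and 16.4 in WT1 and WT2, a log2 fold change of 2.27 (SE 0.537, unadjusted p = 0.00395 and adjusted p = 0.427 in edgeR, adjusted p = 0.00248 in DESeq2). Macrophage-like wells had 164 and 141 Kdr CPM in KO1 and KO2, against 16.3 and 20.7 in WT1 and WT2, a log2 fold change of 2.90 (SE 0.525, unadjusted p = 0.000828 and adjusted p = 0.457 in edgeR, adjusted p = 0.000289 in DESeq2). KO and WT did not overlap in either class. edgeR did not call the difference in either class, whereas DESeq2 did, and so did edgeR with no filter on low counts (adjusted p = 0.0160 in fibroblast-like and 0.00485 in macrophage-like wells). In macrophage-like wells Flt1 had 204 and 37.0 CPM in KO1 and KO2, against 17.7 and 8.82 in WT1 and WT2, a log2 fold change of 2.99 (SE 0.843, adjusted p = 0.485 in edgeR and 0.00875 in DESeq2). In fibroblast-like wells Flt1 had 123 and 52.1 CPM in KO1 and KO2, against 12.1 and 69.9 in WT1 and WT2, which overlap, a log2 fold change of 0.89 (SE 0.822, edgeR adjusted p = 0.754). In WT2, 51.3% of these fibroblast-like Flt1 UMIs came from 1 well. As a mean over wells KO and WT did not overlap, at 191 and 74.1 CPM in KO1 and KO2, against 47.1 and 40.8 in WT1 and WT2.

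Among the other genes, Nrp1 differed by 0.69 (SE 0.276, edgeR adjusted p = 0.477) in fibroblast-like wells. Vegfa differed by 1.01 (SE 0.476, edgeR adjusted p = 0.526) in fibroblast-like wells and by 0.57 (SE 0.501, edgeR adjusted p = 0.792) in macrophage-like wells. In fibroblast-like wells 10 of 10 genes had positive values, at a median of 0.95, against 0.00 over all genes. In macrophage-like wells 9 of 10 were positive, at a median of 0.90, against -0.031 over all genes. Of 14296 genes in fibroblast-like wells 0 were called by edgeR (0%), with 1451 at an unadjusted p under 0.05 and 367 by DESeq2. Of 12478 genes in macrophage-like wells 0 were called by edgeR (0%), with 1122 at an unadjusted p under 0.05 and 392 by DESeq2. With KO1, KO2, WT1 and WT2 left out in turn, edgeR called 0, 2, 0 and 0 genes in fibroblast-like wells and 0, 0, 58 and 39 in macrophage-like wells.

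Endothelial marker RNA differed in the same direction in these classes. The 9 markers summed to 0.219% and 0.162% of UMIs in fibroblast-like wells of KO1 and KO2, against 0.0997% and 0.0740% in WT1 and WT2. They summed to 0.287% and 0.165% in macrophage-like wells of KO1 and KO2, against 0.0429% and 0.0460% in WT1 and WT2. In neutrophil-like NCM wells they summed to 0.569% and 0.233% in KO1 and KO2, against 0.146% and 0.0817% in WT1 and WT2. In those neutrophil-like wells, 18 of them in KO2, Kdr had 311 and 64.9 CPM in KO1 and KO2, against 51.5 and 16.6 in WT1 and WT2. None of the 9 markers was at 0 in these sums apart from 1 in the neutrophil-like wells of WT2. Per 100 marker UMIs, fibroblast-like wells held 5.54 and 3.19 Kdr UMIs in KO1 and KO2, against 1.52 and 2.21 in WT1 and WT2. Macrophage-like wells held 5.74 and 8.56 in KO1 and KO2, against 3.79 and 4.50 in WT1 and WT2. For Kdr, the KO animals were above the WT animals in this ratio in both classes. For Flt1 they overlapped. Fibroblast-like wells held 5.63 and 3.22 Flt1 UMIs in KO1 and KO2, against 1.22 and 9.44 in WT1 and WT2, the WT2 value resting largely on 1 well. Macrophage-like wells held 7.12 and 2.25 Flt1 UMIs in KO1 and KO2, against 4.12 and 1.92 in WT1 and WT2. Thinned to 10000 UMIs, the share of wells with Kdr in fibroblast-like wells was 33.3% and 15.8% in KO1 and KO2, against 10.3% and 7.94% in WT1 and WT2, and in macrophage-like wells 33.3% and 30.6% in KO1 and KO2, against 10.4% and 11.5% in WT1 and WT2. These shares lay below that of the neutrophil-like wells in both KO animals and above it in both WT animals, and each lay within the exact binomial 95% interval of the neutrophil-like share of its animal. These intervals rest on 29 and 16 neutrophil-like wells in KO1 and KO2, against 69 and 35 in WT1 and WT2. They cover counting error only and are wide, so they cannot show whether either class held a share above that background. The part of endothelial RNA, of the mitochondrial share and of the chip in these values was not tested.

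**Figure D4:**
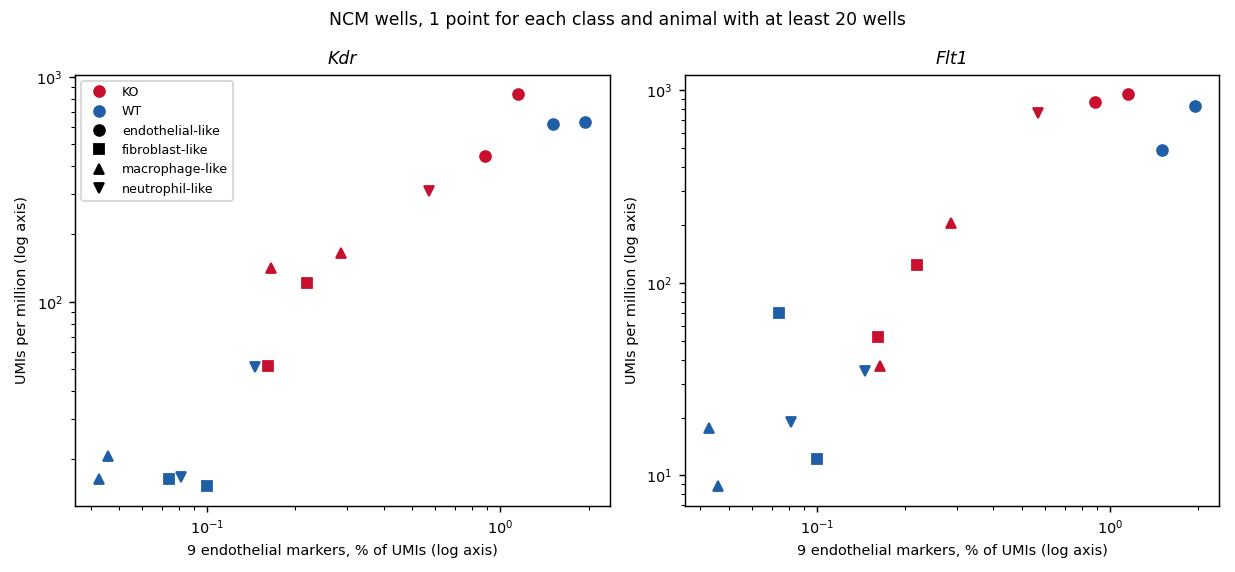
CPM (UMIs per 1000000) of Kdr (left) and Flt1 (right) against the summed share of 9 endothelial markers in percent of UMIs, both on log axes, in NCM wells. Each point is 1 class of 1 animal, with KO and WT in separate colours. KO macrophage-like wells stand at 164 and 141 Kdr CPM, above WT macrophage-like wells at 16.3 and 20.7, and further right.

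The KO against WT difference of Kdr was lower in endothelial-like than in fibroblast-like wells, with an interaction of -2.40 on the log2 scale (SE 0.404, unadjusted p = 0.000375 and adjusted p = 0.302 in edgeR, adjusted p = 0.00357 in DESeq2). It passed in edgeR with no filter on low counts (adjusted p = 0.00247). The same interaction was -1.08 (SE 0.368, edgeR adjusted p = 0.929) for Nrp1 and -2.69 (SE 0.827, edgeR adjusted p = 0.878) for Tie1. Of 14473 genes 4 were called by edgeR (0.0276%), all lower, and none of these was among the 10. Without KO1, KO2, WT1 and WT2 in turn, edgeR called 6, 5, 8 and 20 genes, and DESeq2 called 249.

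In cardiomyocyte-like CM wells the ligands did not pass. On the levels given above, Vegfa differed by -0.86 (SE 0.619, edgeR adjusted p = 0.938), Vegfb by -0.18 (SE 0.434, edgeR adjusted p = 0.965) and Angpt1 by -0.14 (SE 0.425, edgeR adjusted p = 0.970). Without KO1, Vegfb turned to 0.25, Angpt1 to 0.032 and Vegfa moved to -0.23. Of 12619 genes 0 were called by edgeR (0%), with 598 at an unadjusted p under 0.05 and 71 by DESeq2. Leaving out KO1, KO2, WT1 and WT2 in turn gave 4, 622, 5 and 8 edgeR calls. Flt4 fell under the filter.

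Over all NCM wells, Kdr had 415 and 181 CPM in KO1 and KO2, against 63.2 and 127 in WT1 and WT2, a log2 fold change of 1.45 (SE 0.468, adjusted p = 0.358 in edgeR and 0.0387 in DESeq2). Nrp1 had 656 and 401 CPM in KO1 and KO2, against 253 and 283 in WT1 and WT2, a log2 fold change of 0.80 (SE 0.255, edgeR adjusted p = 0.357). Flt1 had 501 and 201 CPM in KO1 and KO2, against 59.2 and 181 in WT1 and WT2, a log2 fold change of 1.34 (SE 0.6001, edgeR adjusted p = 0.432). In these sums both KO animals lay above both WT animals for each of these receptors. That description is not set against the share of all genes that do the same. In KO2, 32.5% of the Flt1 UMIs came from 1 well. As a mean over wells Flt1 overlapped, at 587 and 240 CPM in KO1 and KO2, against 130 and 284 in WT1 and WT2. An unadjusted edgeR p under 0.05 was found for 3 of the 10 genes and for 12.1% of all genes. Vegfb had 17.7 and 23.8 CPM in KO1 and KO2, against 8.75 and 7.80 in WT1 and WT2, also without overlap, a log2 fold change of 1.18 (SE 0.451, edgeR adjusted p = 0.394). Of 17216 genes 0 were called by edgeR (0%), with 2075 at an unadjusted p under 0.05 and 579 by DESeq2. Without KO1, KO2, WT1 and WT2 in turn, edgeR called 0, 0, 1 and 0. Among wells under 30% mitochondrial UMIs, 18 and 160 in KO1 and KO2, against 645 and 570 in WT1 and WT2, Kdr turned to -0.44 and Nrp1 to -0.099. Over all CM wells 6 of the 10 genes had positive values, at a median of 0.14. Of 14462 genes there 0 were called by edgeR (0%), with 498 at an unadjusted p under 0.05 and 48 by DESeq2.

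A list of 34 other genes of these pathways held further ligands, co-receptors and modulators, signal transducers, VEGF-responsive endothelial genes and oxygen sensors. Between the fractions over all wells, 33 were tested, 2 were higher in CM and 4 lower, at a median log2 fold change of -0.59. Of all genes 8.33% were called higher and 5.92% lower, at a median of -0.28. Egln3, an oxygen-dependent prolyl hydroxylase that marks HIF proteins for destruction, was higher in CM, at a log2 fold change of 1.84 (SE 0.347, edgeR adjusted p = 0.00810). It had 47.8, 37.2, 24.1 and 28.0 CPM in CM wells of KO1, KO2, WT1 and WT2, against 20.3, 9.44, 9.58 and 16.9 in their NCM wells. Rcan1, a calcineurin inhibitor induced by VEGF, was higher as well, at 1.34 (SE 0.373, edgeR adjusted p = 0.0431). Vegfd, a lymphatic growth factor, was lower in CM, at -2.93 (SE 0.452, edgeR adjusted p = 0.00305). It had 4.27, 1.13, 2.98 and 2.49 CPM in CM wells of KO1, KO2, WT1 and WT2, against 25.8, 26.5, 43.3 and 17.6 in their NCM wells, without overlap. Also lower were Svep1, a large matrix protein, at -3.05 (SE 0.836, edgeR adjusted p = 0.0410), and Nr4a1, an immediate early nuclear receptor, at -1.57 (SE 0.299, edgeR adjusted p = 0.00853). Ptprb, a phosphatase that restrains the Tek receptor, was lower at -0.97 (SE 0.276, edgeR adjusted p = 0.0470). Within endothelial-like wells 30 were tested and 0 passed in edgeR, 8 of them at an unadjusted p under 0.05, as were 17.6% of all genes.

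Between KO and WT none of the list passed in edgeR in any of the 6 comparisons. In endothelial-like NCM wells 16 of 30 tested had positive values, at a median of 0.24, and 2 had an unadjusted p under 0.05, against 8.69% of all genes. In fibroblast-like NCM wells 24 of 30 were positive, at a median of 0.94, with 7 under that p, against 10.1% of all genes. Dll4, a Notch ligand of endothelial tip cells, had the highest value there, 5.33 (SE 1.63, edgeR adjusted p = 0.435). It rested on 55 and 48 UMIs in KO1 and KO2, against 8 and 1 in WT1 and WT2. In macrophage-like NCM wells 18 of 27 were positive, at a median of 0.58, with 6 under that p, against 8.99% of all genes. The highest values there were those of Aplnr, the apelin receptor, 6.06 (SE 1.88, edgeR adjusted p = 0.485), Apln, its ligand, 5.32 (SE 1.33, edgeR adjusted p = 0.485), and Esm1, a proteoglycan of tip cells, 4.62 (SE 1.63, edgeR adjusted p = 0.489). Aplnr had 58.7 and 1.397 CPM in KO1 and KO2, against 0.564 and 0.188 in WT1 and WT2, so its value rested on KO1. Esm1 had 21 and 7 UMIs in KO1 and KO2, against 3 and 3 in WT1 and WT2. In cardiomyocyte-like CM wells 17 of 27 were positive, at a median of 0.31. Over all NCM wells 24 of 33 were positive, at a median of 0.60, with Esm1 at 2.78 (SE 0.845, edgeR adjusted p = 0.343) and Epas1, a HIF subunit, at 1.75 (SE 0.358, edgeR adjusted p = 0.339). Over all CM wells 19 of 31 were positive, at a median of 0.27.

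Pgf, another ligand of the Flt1 product, was the listed gene with the lowest p in the interaction of genotype and fraction. It had 60.3 and 37.8 CPM in CM wells of KO1 and KO2, against 77.1 and 44.3 in their NCM wells. It had 3.14 and 9.02 CPM in CM wells of WT1 and WT2, against 50.6 and 134 in their NCM wells. CM lay below NCM in every animal, and less so in KO. The interaction was 3.76 on the log2 scale (SE 0.525, unadjusted p = 0.000166 and adjusted p = 0.657 in edgeR) and did not pass. In cardiomyocyte-like CM wells Pgf had 113 and 13.1 CPM in KO1 and KO2, against 0.125 and 6.14 in WT1 and WT2, a log2 fold change of 3.98 (SE 1.52, edgeR adjusted p = 0.938), without overlap. The WT1 value was 1 UMI, so this fold is uncertain.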

How the data were processed

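Single-well RNA-seq counts of 4 chips were analysed. Per the submitters' processing notes, reads were aligned with STAR 2.5.2b to mm10 and assigned to genes with featureCounts of Subread 1.4.6-p1. The deposited values are raw UMI counts per gene and well, and the authors' per-well reports give each well's animal and fraction. Columns that name no mouse gene took 4.98e-05% of UMIs and were left out, as were the 40 control wells. Kept wells (at least 10000 UMIs and 300 genes) were clustered with scanpy 1.11.5 (2000 variable genes, 30 components, 15 neighbours, Leiden resolution 1.0) without the 10 genes, the 34 pathway genes and mitochondrial and haemoglobin genes. A cluster was named where at least 3 markers of a class were among its 30 leading genes. Called doublets (0 to 11 wells an animal and fraction) were kept. Counts outside mt-, Hba- and Hbb- genes were summed per animal, fraction and class and tested with edgeR 4.0.16 (quasi-likelihood, TMM, low-count filter, Benjamini-Hochberg adjustment over all genes, threshold 0.05), with DESeq2 1.42.0 as an alternative. The steps were tested on simulated data. The animal is the replicate, 2 KO against 2 WT. To compare detection, wells were thinned to 10000 UMIs, which left out 2 to 106 wells an animal and fraction.

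The genes, the lists and the tests were chosen with earlier results of these data known. The 10 genes were always named. Other pathway genes were named where they passed the threshold or were among the 3 largest rises or falls. Sequences are from RefSeq (GRCm38.p6) and coordinates from GENCODE vM21. Of the 10 genes, 9 had a promoter in the RefSeq table. Intervals cover counting error only.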

Additional observations from a re-analysis of the deposited data

Results flagged for a closer look

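Over all kept wells of a fraction, the 4 animals were examined for an animal far from the others, in 20 sets of 4 values (10 genes in 2 fractions). Chance alone marks about 1 set in 20. Flt1 in the CM fraction stood apart in KO1, at 152 CPM, with 57.9 in KO2, against 53.9 and 61.9 in WT1 and WT2. Vegfc in the NCM fraction stood apart in KO1, at 27.3 CPM, with 7.80 in KO2, against 10.3 and 9.80 in WT1 and WT2. The 9 endothelial markers summed to 0.243% and 0.101% of UMIs in CM wells of KO1 and KO2, against 0.120% and 0.0981% in WT1 and WT2. In NCM wells they summed to 0.603% and 0.318% in KO1 and KO2, against 0.192% and 0.390% in WT1 and WT2. KO1 had the highest sum in both fractions, and its part in the Flt1 and Vegfc values was not tested.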

How the results depend on the processing

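Of 473 recomputations of 42 log2 fold changes of these genes, 424 kept their direction and side of the threshold, 18 lost and 20 gained a call, and 11 changed sign. Where no reason is given, the cause was not tested. With no filter on low counts, edgeR called 192, 267 and 252 genes between KO and WT in endothelial-like, fibroblast-like and macrophage-like NCM wells, 96 in cardiomyocyte-like CM wells, 226 over all NCM and 47 over all CM wells. It called 1039 between the fractions in endothelial-like wells, 43 in the interaction with fraction and 76 in that with class. DESeq2 called 315, 367, 392, 71, 579 and 48 in the same 6 comparisons of KO with WT, 4607 and 1869 between the fractions over all and endothelial-like wells, and 116 and 249 in the interactions. The fractions over all wells gave 3963 calls with library totals and 750 in wells under 30% mitochondrial UMIs. The interaction with class gave 0 calls with mt-, Hba- and Hbb- genes kept.

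Leaving out each animal in turn gave 0 to 13, 0 to 2, 0 to 58, 4 to 622, 0 to 1 and 0 to 0 calls in the 6 comparisons of KO with WT, in the same order. It gave 1252 to 2654 and 372 to 692 between the fractions, and 0 to 5 and 5 to 20 in the interactions. It moved the KO over WT value in endothelial-like wells between -0.55 and 0.13 for Kdr, -0.011 and 0.68 for Flt1 and -1.16 and 0.17 for Tie1, and in cardiomyocyte-like wells between -0.83 and 0.25 for Vegfb and -0.37 and 0.032 for Angpt1. Other sign changes were Kdr in endothelial-like wells (0.038) and Vegfa between fractions (-0.057) with library totals. In wells under 30% mitochondrial UMIs, Kdr (-0.44) and Nrp1 (-0.099) over all NCM wells and Vegfc between fractions (0.20) changed sign. That alternative was not run for class comparisons, where a sum held under 20 wells. As a mean over wells, Flt4 in lymphatic endothelial-like NCM wells was 359 CPM in place of 149, and Angpt1 in cardiomyocyte-like CM wells 39.7 in place of 42.2, or 36.9 with coarser clusters.

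Animal numbers are only names: deviations of animals with the same number correlated by -0.0235 to 0.191. With the number as a replicate block, macrophage-like wells gave 4 calls between KO and WT and the other 5 comparisons 0. Without the animal block, the fractions gave 2769 calls over all wells and 633 in endothelial-like wells. With 2 animals a genotype and single wells holding up to most of a sum, small differences were not detectable.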

Other observations

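Receptors of the same pathway were set against each other well by well, in endothelial-like NCM wells thinned to 10000 UMIs. Where Tek was found, 14 of 44 and 6 of 16 wells also held Tie1 in KO1 and KO2, against 3 of 10 and 9 of 32 in WT1 and WT2. Where it was not found, 34.2% and 21.0% held Tie1 in KO1 and KO2, against 27.1% and 22.2% in WT1 and WT2. Where Nrp1 was found, 66.0% and 63.5% held Kdr in KO1 and KO2, against 62.7% and 70.3% in WT1 and WT2. Where Nrp1 was not found, 48.4% and 60.9% held Kdr in KO1 and KO2, against 28.6% and 53.8% in WT1 and WT2. Kdr was found more often beside Nrp1 in 4 of 4 animals and Tie1 more often beside Tek in 3 of 4, without a test.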
